A study of Mus musculus with 24 samples.

Results

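Interferon-stimulated genes are the genes that a cell switches on when an interferon binds its receptor. Here 46 of them, chosen by name from a list of interferon-induced mouse genes, are described in RNA from cells captured as bile duct cells. All 46 were found by symbol among the 49315 genes counted in each of 24 libraries, and all 46 passed the filter on low counts in both sexes. They comprise 13 interferon-induced GTPases (6 guanylate-binding proteins, 5 members of the Irg family and its relatives, and the pair Tgtp1 and Tgtp2), 10 genes of the Ifit, Oas and Mx families, 4 transcription factors, 4 sensors of foreign nucleic acid, 2 feedback inhibitors, 3 genes of the PARP group and 10 other effectors.

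The cells were intrahepatic cholangiocytes, the epithelium that lines the bile ducts within the liver, captured with an antibody and magnetic beads. By their titles the libraries fall into 8 groups of 3: male and female wild-type mice (WT), WT mice given the gut hormone secretin, mice carrying dominant-negative TGF-β receptor II (dnTGFB, a model of primary biliary cholangitis), and dnTGFB mice given secretin. Secretin came from implanted osmotic minipumps for 8 weeks at a daily 4 µg per kg, starting at 32 weeks of age and with a second pump after 1 month, so treated mice of both genotypes were 40 weeks old at the end. Untreated WT mice were 32 weeks old, and no age is stated for untreated dnTGFB mice, so secretin and 8 weeks of age cannot be told apart in WT mice. The genotype label went against the title in 12 of the 24 libraries (WT secretin carried the transgene label and untreated dnTGFB the wild-type label), and the titles were followed, as they match the list of groups in the series' design text. Cells of 6 to 8 mice were pooled per group and the RNA of the pool was sequenced in triplicate, so p-values measure only the spread between libraries of 1 pool, which may be technical. The dnTGFB line is known from other work to express its transgene in T cells, under a Cd4 promoter that the labels do not name, so the receptor block is not placed in the bile duct cells themselves.

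As background, type I interferons (the alpha and beta families) and type III interferons act through the kinases Jak1 and Tyk2 on a complex that includes Stat2 and Irf9 and binds the interferon-stimulated response element (ISRE) near genes such as Ifit1, Isg15 and Mx1. Interferon gamma, the type II interferon made mostly by T cells and natural killer cells, acts through Jak1 and Jak2 and the gamma-activated site (GAS), and it induces the transcription factor Irf1 and, in mice, the GTPases of the Gbp and Irg families. Bile duct cells carry receptors for these interferons, and interferon-driven inflammation is part of the known biology of primary biliary cholangitis.

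Libraries of 1 group were not all alike, which touches every result below. Total counts ran from 1429218 in male dnTGFB library 3 to 104003184 in female WT secretin library 2. The bile duct marker Krt19 was found in all 24 libraries, at 18.0 to 362 CPM (CPM, a gene's counts per 1000000 counts of the library total after TMM scaling over all 24 libraries, is the unit of every level below). Markers of other cells were also high. Hepatocyte markers summed to 17152 CPM against 746 for 6 bile duct markers in male dnTGFB library 1, but to 2684 to 2748 against 4338 to 4463 in male dnTGFB secretin. Levels below are thus those of the whole library, not of bile duct cells alone. Male WT library 1 had 42.8% mitochondrially encoded counts against 9.73% and 9.75% in WT libraries 2 and 3, and it was closest not to its own group (chi-square of 40.0 per gene) but to male dnTGFB library 2 (7.23). Male dnTGFB libraries 1 and 2 had a still higher mitochondrial share of 55.1% and 55.0% but resemble each other, and they were kept in every fit but those that leave out 1 library. Male dnTGFB library 3 had a sum of 6 heart muscle markers of 8017 CPM and of 6 neuron markers of 3834 CPM. Libraries 2 and 3 of female WT secretin and libraries 1 and 2 of female dnTGFB had heart muscle sums of 52191 to 64341 CPM and the Y-linked Ddx3y at 46.8 to 64.3 CPM of the library total. These 6 libraries are called the libraries that stood apart, and results are given with and without them. Female WT library 2 and female dnTGFB secretin library 1 differed by little more than sampling noise (chi-square of 1.17 per gene, where 1 is the noise of repeat sequencing), as did female WT secretin library 1 and female dnTGFB secretin library 3 (1.45), although each pair carries different group titles. Repeat libraries of the male secretin pools differed from their nearest by 1.09 to 1.44. Xist, made from the inactive X chromosome, stood at 34.0 to 42.4 CPM of the library total in the male WT secretin libraries and at no more than 1.64 in male WT, and those male WT secretin libraries also held Ddx3y at 77.6 to 81.8 CPM.

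Sequence near the start site gives the context of the set, since the ISRE and the GAS are how interferon signals reach these genes. RefSeq promoter windows (GRCm38.p6, 250 bases before to 50 after the start) matched 33 of the 46 members. The ISRE was searched as GAAA, any 2 bases and again GAAA, and the GAS as TTCNNNGAA, each on both strands, with overlapping matches counted. An ISRE match was found in 21 of the 33 windows (63.6%) against 3.44% of all 32851 windows of that length, and a GAS match in 12 (36.4%) against 8.3%. Among the GTPases 9 of 10 windows held an ISRE match and 6 of 10 a GAS match, and among the Ifit, Oas and Mx genes 4 of 7 and 2 of 7. A match describes the letters only and is not evidence of binding.

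The 200 bases before the start of 5 members are shown, read 5′ to 3′ in the sense of the gene. Of these, Ifit1, Isg15, Irf1 and Irgm1 were called in male WT secretin against male WT below, and Gbp2 was not. Windows with both an ISRE and a GAS match, such as those of Gbp5 and Igtp, occur in the set but are not among the 5. Capitals mark ISRE and GAS matches, and positions count back from the start site, with −1 as the last base shown. Ifit1 (chr19:34640689-34640888 (plus strand)) has ISRE matches at −104 to −95 and −85 to −76. Isg15 (chr4:156200819-156201018 (minus strand)) has 3 overlapping ISRE matches between −78 and −57. Irf1 (chr11:53769814-53770013 (plus strand)) has a GAS match at −90 to −82 and no ISRE match. Irgm1 (chr11:48871421-48871620 (minus strand)) has overlapping ISRE matches at −30 to −21 and −24 to −15. Gbp2 (chr3:142620463-142620662 (plus strand)) has 1 ISRE match at −59 to −50.
Ifit1: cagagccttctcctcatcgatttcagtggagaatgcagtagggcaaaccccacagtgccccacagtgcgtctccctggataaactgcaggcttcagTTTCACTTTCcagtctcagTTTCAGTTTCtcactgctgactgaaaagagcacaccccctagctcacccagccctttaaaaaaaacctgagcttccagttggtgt
Isg15: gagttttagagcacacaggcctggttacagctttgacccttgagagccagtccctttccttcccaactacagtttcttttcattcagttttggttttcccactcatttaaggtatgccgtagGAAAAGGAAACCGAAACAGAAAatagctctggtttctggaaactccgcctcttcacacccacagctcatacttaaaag
Irf1: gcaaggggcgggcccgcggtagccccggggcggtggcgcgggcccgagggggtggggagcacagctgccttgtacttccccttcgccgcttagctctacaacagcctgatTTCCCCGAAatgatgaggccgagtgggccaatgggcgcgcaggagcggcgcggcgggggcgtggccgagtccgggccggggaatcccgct
Irgm1: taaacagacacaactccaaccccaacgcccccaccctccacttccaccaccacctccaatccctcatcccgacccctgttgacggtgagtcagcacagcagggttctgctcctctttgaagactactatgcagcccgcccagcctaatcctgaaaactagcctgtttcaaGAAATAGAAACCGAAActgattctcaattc
Gbp2: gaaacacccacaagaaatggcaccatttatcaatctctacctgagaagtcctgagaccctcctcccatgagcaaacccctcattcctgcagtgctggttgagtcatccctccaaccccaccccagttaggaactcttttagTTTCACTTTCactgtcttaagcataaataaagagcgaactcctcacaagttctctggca

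Motif matches were spread over members that passed the tests below and members that did not. Of the 11 members lower in male WT secretin than in male WT, 9 had a promoter window and 6 of those an ISRE match, beside 15 of 24 among the members not called. Irf1, Ifit2 and Cmpk2 were called lower without an ISRE match in the window, and Gbp2, Gbp3, Gbp5 and Gbp7 have a match and were not called in that comparison.

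The members covered a wide range of levels. By the median over 24 libraries per kilobase of gene model, Bst2, which encodes tetherin, a membrane protein that holds budding virus on the cell, came first at 294 CPM per kb, ahead of Irf1 at 173, Iigp1 at 66.1 and Isg15 at 59.2. The lowest were Oas2 at 2.42, Mx1 at 1.05, Oas3 at 0.594 and Ido1 at 0.185 CPM per kb. Ido1, the tryptophan-degrading enzyme, had 355 reads over all 24 libraries. Among the GTPases the order ran from Iigp1 over Igtp (36.0) and Gbp2 (25.6) down to Gbp6 (4.17), and among the Ifit, Oas and Mx genes from Ifit3 (31.2) and Ifit2 (11.8) down to Oas3.

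Members sit in clusters of related genes (GRCm38 coordinates): Gbp2, Gbp3, Gbp5 and Gbp7 on chromosome 3, Gbp4 and Gbp6 on chromosome 5, the 3 Ifit genes on chromosome 19, the 5 Oas genes on chromosome 5, Mx1 and Mx2 on chromosome 16, and 6 of the 7 Irg and Tgtp genes on chromosome 11. Counts are uncertain where neighbours share sequence or overlap: the near-identical Tgtp1 and Tgtp2, Igtp and Irgm2, which overlap on 1 strand, Gbp4 with the neighbouring copies Gbp8 and Gbp9, and Parp9 and Dtx3l, which overlap on opposite strands and whose reads cannot be told apart, as strand use is not known here.

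**Figure D1:**
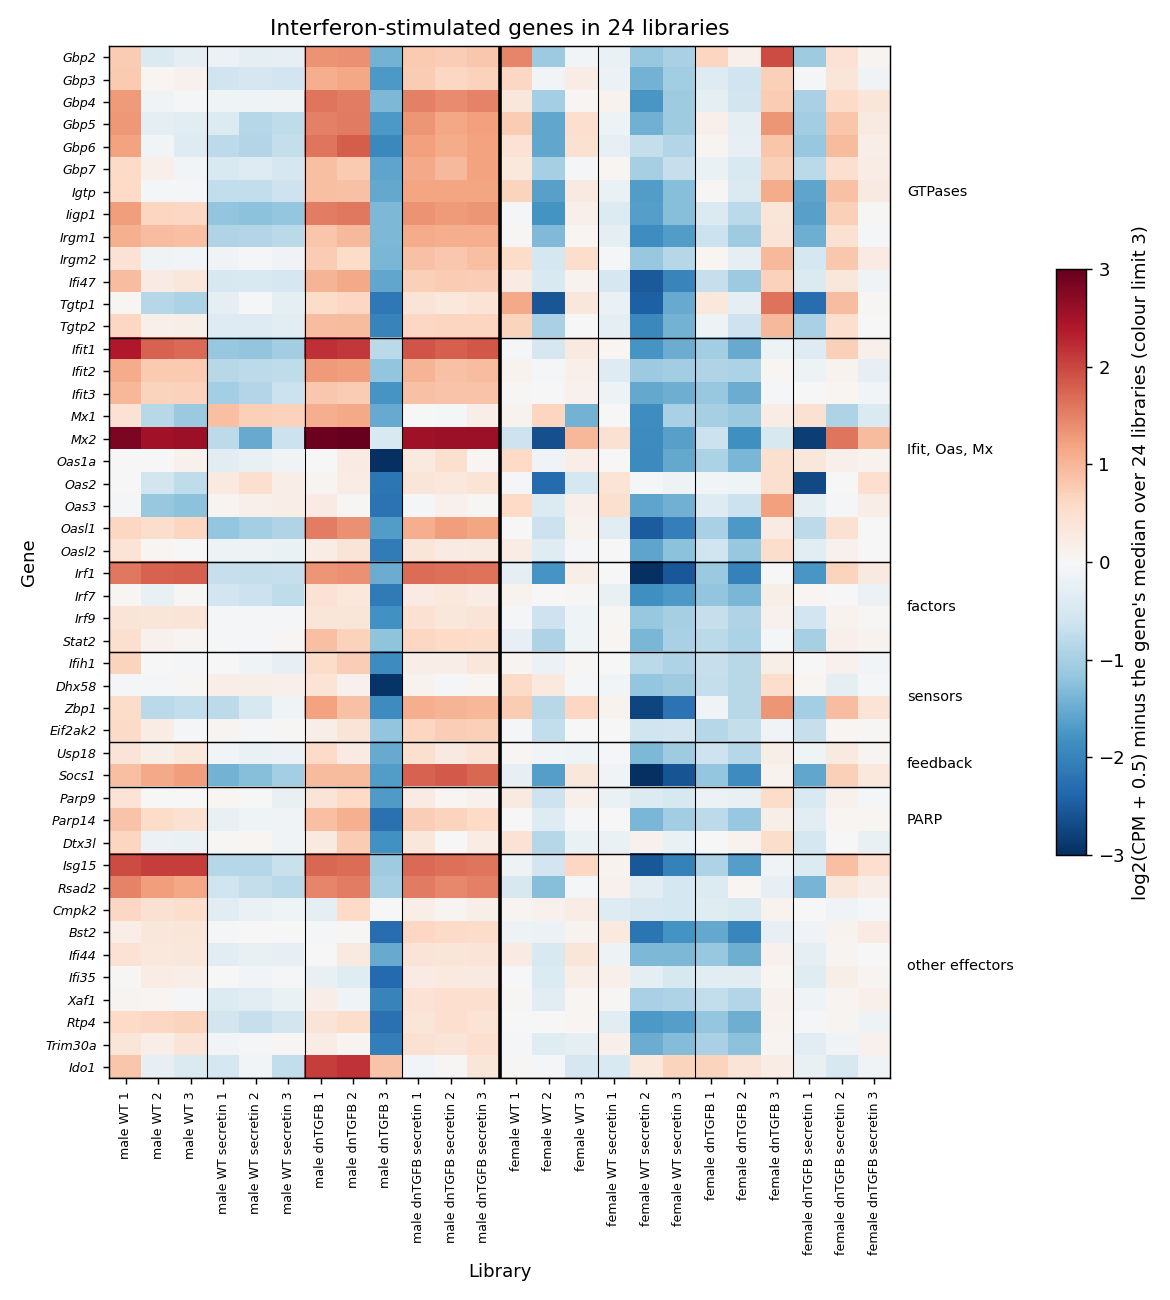
Level of the 46 members (rows, grouped by class) in the 24 libraries (columns), as log2(CPM + 0.5) minus the gene's median over all 24 libraries, with colours limited at 3. Male dnTGFB library 3 is low for nearly all members, the male WT secretin libraries are low for Mx2, Ifit1, Isg15, Socs1 and Irf1, and female libraries of 1 group differ among themselves.

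The transcription factors of the set carry the interferon signal to the other members. Irf1 (ENSMUSG00000018899, chr11:53770014-53778374, plus strand) drives many interferon gamma targets and stood at 2042, 2325 and 2360.0 CPM in male WT, 424, 418 and 425 in male WT secretin, 1717, 1769.8 and 243 in male dnTGFB, and 2183, 2170.3 and 2108 in male dnTGFB secretin. The 3 male WT secretin libraries lay below every male WT and male dnTGFB secretin library, and male dnTGFB library 3 was lower still. In females Irf1 stood at 562, 202 and 778 CPM in female WT, 676, 76.1 and 116 in female WT secretin, 317, 167 and 696 in female dnTGFB, and 203, 1096 and 821 in female dnTGFB secretin. Female groups overlapped, and the 4 libraries rich in heart muscle transcripts were among the 6 lowest.

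Irf7 (ENSMUSG00000025498, chr7:141262706-141266481, minus strand), which switches on interferon genes themselves, stood at 82.0, 67.5 and 81.0 CPM in male WT, 52.8, 49.8 and 46.2 in male WT secretin, 106, 97.5 and 17.7 in male dnTGFB, and 93.9, 97.2 and 92.0 in male dnTGFB secretin. Levels of Irf7 in female libraries were 84.9, 77.8 and 81.2 CPM in female WT, 67.7, 21.5 and 23.6 in female WT secretin, 34.4, 29.9 and 88.9 in female dnTGFB, and 81.7, 79.5 and 69.4 in female dnTGFB secretin. Apart from male dnTGFB library 3 the male groups differed by far less than for Irf1, with WT secretin lowest. Stat2 (ENSMUSG00000040033, chr10:128270576-128292849, plus strand), which is part of the type I complex, stood at 97.1, 75.8 and 74.1 CPM in male WT, 68.1, 68.1 and 71.4 in male WT secretin, 131, 113 and 29.8 in male dnTGFB, and 108, 107 and 103 in male dnTGFB secretin. Female Stat2 levels were 59.0, 36.6 and 63.9 CPM in female WT, 73.1, 26.7 and 35.4 in female WT secretin, 39.9, 36.2 and 68.3 in female dnTGFB, and 34.6, 78.2 and 75.2 in female dnTGFB secretin, so that male WT and male WT secretin nearly met and the highest values lay in male dnTGFB libraries 1 and 2. Irf9, the DNA-binding part of that complex, ranged from 87.9 to 90.6 CPM in male WT and from 65.5 to 67.2 in male WT secretin.

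The feedback inhibitors differed from each other. Socs1 (ENSMUSG00000038037, chr16:10783808-10785536, minus strand) blocks the Jak kinases and is induced by the signal it ends. Its levels were 121, 142 and 153 CPM in male WT, 23.7, 26.0 and 31.5 in male WT secretin, 124, 124 and 19.7 in male dnTGFB, and 219.7, 232 and 215 in male dnTGFB secretin. In females they were 54.0, 19.9 and 81.4 CPM in female WT, 59.4, 5.81 and 10.2 in female WT secretin, 28.5, 16.9 and 69.5 in female dnTGFB, and 21.5, 106 and 80.3 in female dnTGFB secretin. Male dnTGFB secretin held the 3 highest values of the series, and male WT secretin lay below all other male libraries but dnTGFB library 3. Usp18 (ENSMUSG00000030107, chr6:121245906-121270917, plus strand), which removes the modifier Isg15 from proteins and dampens the type I receptor, stood at 18.4, 15.9 and 17.4 CPM in male WT, 13.2, 12.1 and 12.4 in male WT secretin, 20.9, 16.8 and 4.55 in male dnTGFB, and 19.5, 16.9 and 18.8 in male dnTGFB secretin. Its female levels were 14.2, 13.2 and 12.8 CPM in female WT, 13.7, 5.18 and 6.42 in female WT secretin, 8.86, 7.48 and 15.8 in female dnTGFB, and 12.8, 16.9 and 14.9 in female dnTGFB secretin. Usp18 was lowest in male dnTGFB library 3 and in the female libraries rich in heart muscle transcripts, and elsewhere it kept within a narrow range.

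The GTPases of the Gbp family coat and break the vacuoles of intracellular microbes. Gbp2 (ENSMUSG00000028270, chr3:142620602-142638008, plus strand) stood at 110.2, 47.9 and 53.5 CPM in male WT, 56.8, 52.5 and 54.5 in male WT secretin, 165, 168 and 23.8 in male dnTGFB, and 111, 107 and 113 in male dnTGFB secretin. Male WT libraries 2 and 3 were close to WT secretin, WT library 1 was as high as dnTGFB secretin, and dnTGFB libraries 1 and 2 were highest. Female Gbp2 levels were 179, 29.7 and 61.2 CPM in female WT, 55.6, 29.2 and 32.6 in female WT secretin, 100.8, 71.0 and 252 in female dnTGFB, and 30.7, 86.7 and 67.6 in female dnTGFB secretin, with female dnTGFB library 3 the highest of the series. Gbp5 (ENSMUSG00000105504, chr3:142493978-142522344, plus strand), which also promotes inflammasome assembly, stood at 77.1, 25.7 and 24.9 CPM in male WT, 23.2, 16.98 and 18.2 in male WT secretin, 88.8, 92.0 and 9.10 in male dnTGFB, and 78.3, 70.0 and 73.1 in male dnTGFB secretin. As for Gbp2, WT library 1 was close to dnTGFB secretin and dnTGFB libraries 1 and 2 were highest, but all 3 WT secretin libraries lay below WT. In females it stood at 53.0, 10.1 and 44.1 CPM in female WT, 27.98, 11.01 and 14.5 in female WT secretin, 34.3, 25.5 and 78.4 in female dnTGFB, and 14.8, 55.2 and 37.3 in female dnTGFB secretin, and its groups overlapped.

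Iigp1 (ENSMUSG00000054072, chromosome 18), an Irg GTPase that attacks parasite vacuoles, stood at 494, 325 and 317 CPM in male WT, 89.8, 87.0 and 91.6 in male WT secretin, 602, 613 and 80.9 in male dnTGFB, and 524, 501 and 514 in male dnTGFB secretin. Unlike Gbp2 it was lower in all 3 WT secretin libraries than in all 3 male WT libraries. Female Iigp1 levels were 202, 59.3 and 229 CPM in female WT, 154, 65.4 and 84.9 in female WT secretin, 151, 117 and 264 in female dnTGFB, and 66.2, 339.6 and 211 in female dnTGFB secretin. Irgm1 (ENSMUSG00000046879, chr11:48861968-48871683, minus strand), which restrains the other Irg proteins and takes part in autophagy, stood at 261, 236 and 234 CPM in male WT, 66.7, 68.1 and 71.4 in male WT secretin, 224, 245 and 48.6 in male dnTGFB, and 268, 264 and 266 in male dnTGFB secretin. For Irgm1 the male WT, dnTGFB libraries 1 and 2 and dnTGFB secretin values were close together, and WT secretin lay far below them. Female Irgm1 levels were 128, 49.2 and 129.6 CPM in female WT, 103, 33.7 and 38.9 in female WT secretin, 79.3, 58.8 and 163 in female dnTGFB, and 45.1, 171 and 121 in female dnTGFB secretin. Tgtp2 (ENSMUSG00000078921, chr11:49057194-49064206, minus strand), an Irg GTPase first found in T cells, stood at 68.2, 48.6 and 49.9 CPM in male WT, 33.8, 33.8 and 35.4 in male WT secretin, 84.4, 85.8 and 10.6 in male dnTGFB, and 68.4, 69.5 and 68.6 in male dnTGFB secretin. Female Tgtp2 levels were 70.2, 22.0 and 44.1 CPM in female WT, 36.2, 11.2 and 16.3 in female WT secretin, 39.7, 28.5 and 86.8 in female dnTGFB, and 22.1, 62.2 and 43.8 in female dnTGFB secretin. Tgtp2 was lower in male WT secretin than in male WT without overlap, by less than Iigp1 or Irgm1.

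Of the genes that act on viral RNA or virus particles, Ifit1 (ENSMUSG00000034459, chr19:34640871-34650009, plus strand), which binds foreign RNA caps, stood at 131, 83.7 and 80.0 CPM in male WT, 10.8, 10.4 and 11.5 in male WT secretin, 113, 108 and 13.7 in male dnTGFB, and 90.9, 85.9 and 90.2 in male dnTGFB secretin. Its female levels were 23.4, 16.9 and 29.7 CPM in female WT, 25.2, 6.81 and 8.35 in female WT secretin, 11.6, 8.17 and 21.9 in female dnTGFB, and 18.4, 40.2 and 27.1 in female dnTGFB secretin. Male WT, dnTGFB libraries 1 and 2 and dnTGFB secretin libraries all lay above every female library, while male WT secretin lay within the lower female range. Oasl2 (ENSMUSG00000029561, chr5:114896936-114912234, plus strand), of the oligoadenylate synthetase family, was far more even, at 71.4, 56.1 and 54.4 CPM in male WT, 48.2, 48.0 and 46.9 in male WT secretin, 62.7, 70.1 and 12.1 in male dnTGFB, and 69.2, 64.2 and 64.8 in male dnTGFB secretin. In females Oasl2 stood at 62.9, 41.5 and 51.5 CPM in female WT, 53.2, 17.6 and 22.4 in female WT secretin, 35.3, 24.04 and 77.8 in female dnTGFB, and 42.8, 58.2 and 54.1 in female dnTGFB secretin. Mx1 (ENSMUSG00000000386, chr16:97447035-97462907, minus strand), a dynamin-like GTPase that blocks influenza virus and is known to be defective in many laboratory strains, was low and ran another way, at 5.31, 1.92 and 1.505 CPM in male WT, 7.66, 6.64 and 6.49 in male WT secretin, 8.70, 9.07 and 1.01 in male dnTGFB, and 3.89, 3.73 and 4.44 in male dnTGFB secretin. Male WT secretin lay above male WT for Mx1, and the female values of 4.19, 6.27 and 1.13 CPM in female WT, 3.78, 0.693 and 1.70 in female WT secretin, 1.66, 1.51 and 4.57 in female dnTGFB, and 5.48, 1.77 and 2.73 in female dnTGFB secretin overlapped between groups.

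Among the other effectors, Isg15 (ENSMUSG00000035692, chr4:156199424-156200818, minus strand), a ubiquitin-like protein attached to targets during the response, stood at 174, 190.3 and 191 CPM in male WT, 24.5, 24.4 and 28.1 in male WT secretin, 148, 144 and 21.2 in male dnTGFB, and 146, 142 and 138 in male dnTGFB secretin. Female levels were 40.3, 29.7 and 69.1 CPM in female WT, 47.8, 7.26 and 10.5 in female WT secretin, 23.3, 13.8 and 41.7 in female dnTGFB, and 33.6, 84.3 and 63.2 in female dnTGFB secretin. Isg15 shared the male pattern of Ifit1 and Irf1, with WT secretin low and the other groups high except dnTGFB library 3. Ido1 (ENSMUSG00000031551, chr8:24584136-24597009, minus strand) was near the limit of detection, at 0.983, 0.204 and 0.116 CPM in male WT, 0.0774, 0.289 and 0 in male WT secretin, 3.01, 3.28 and 1.01 in male dnTGFB, and 0.294, 0.355 and 0.585 in male dnTGFB secretin. The 0 in WT secretin library 3 allows up to 0.153 CPM, by counting error alone. Its female levels were 0.365, 0.321 and 0.0942 CPM in female WT, 0.11, 0.536 and 0.827 in female WT secretin, 0.831, 0.604 and 0.471 in female dnTGFB, and 0.214, 0.104 and 0.283 in female dnTGFB secretin. Male dnTGFB libraries 1 and 2 held its highest values.

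**Figure D2:**
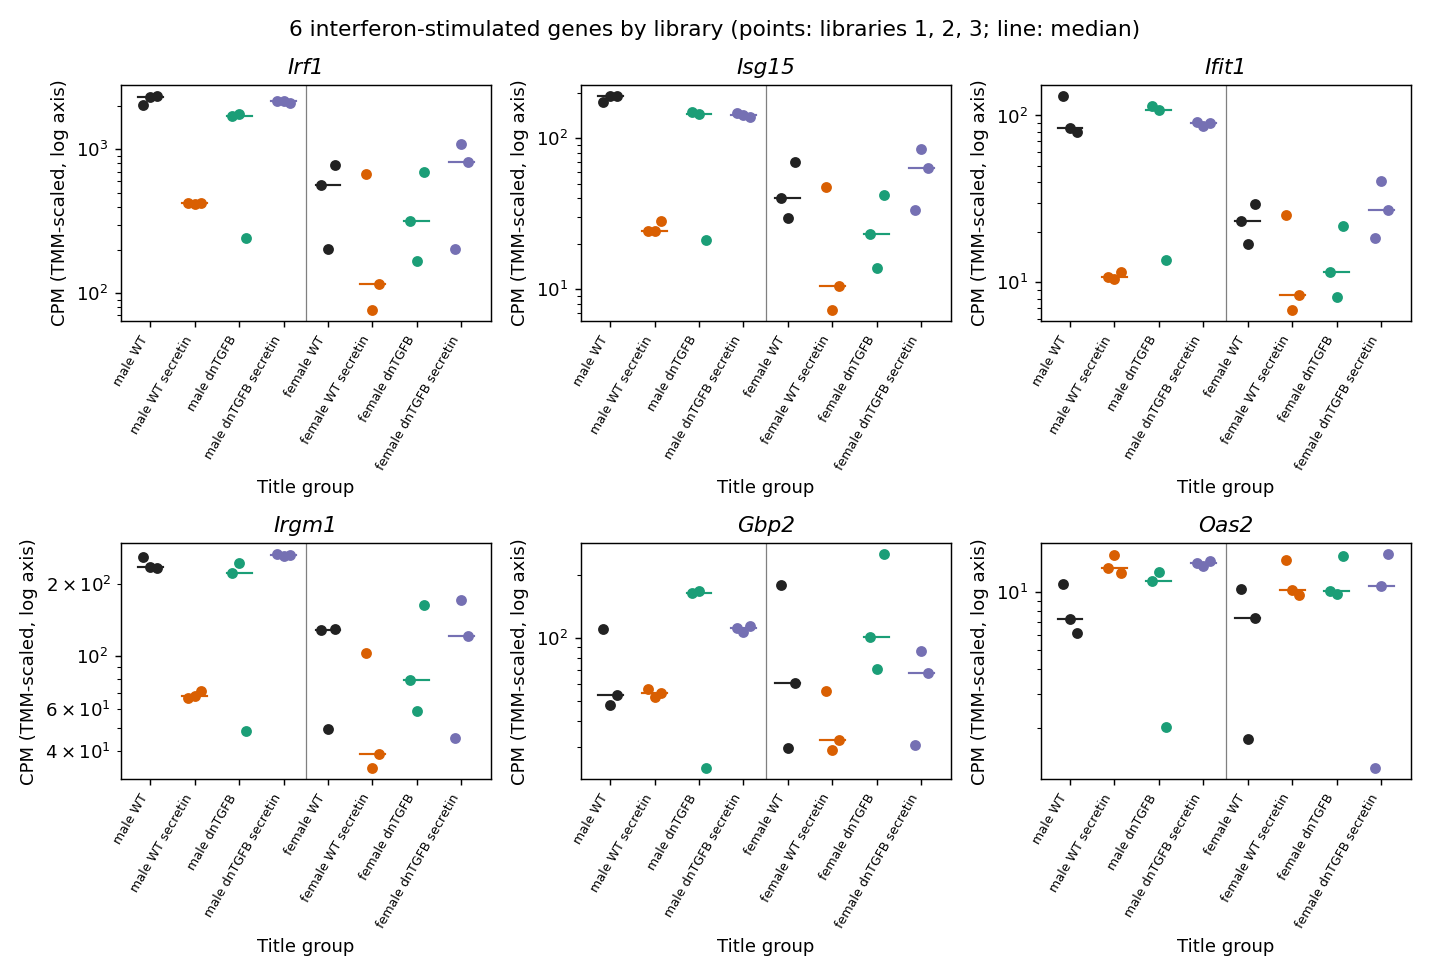
Level of 6 members in CPM (log axis) in every library of the 8 groups, with points for libraries 1 to 3 and a line at the group median. Male WT secretin is low for Irf1, Isg15, Ifit1 and Irgm1 but not for Gbp2 or Oas2, and male dnTGFB library 3 and the female libraries of 1 group spread widely.

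Set against each other, the GTPases and the Ifit, Oas and Mx genes moved mostly together, with some groups where their balance differed. The summed level of the 13 GTPases was 1751, 1094 and 1089 CPM in male WT, 589, 588 and 596 in male WT secretin, 2079.9, 2115 and 314 in male dnTGFB, and 1943, 1859 and 1926 in male dnTGFB secretin. The 10 Ifit, Oas and Mx genes summed to 577, 441 and 444 CPM in male WT, 169.7, 173 and 182 in male WT secretin, 589, 603 and 81.9 in male dnTGFB, and 522, 511 and 511 in male dnTGFB secretin. Male WT secretin was thus low for both classes. The ratio of the sums, which does not depend on how libraries are scaled, was 2.45 to 3.04 in male WT, 3.27 to 3.47 in male WT secretin, 3.51 to 3.83 in male dnTGFB, and 3.64 to 3.77 in male dnTGFB secretin. It was lowest in male WT, without overlap with the other male groups, and male dnTGFB library 3, low for both classes, had the highest male ratio. The separation from WT secretin was lost with the difference of mean log2(CPM + 0.5) between the classes, which weights all genes alike. It ran from 1.29 to 1.61 in male WT and from 1.46 to 1.56 in male WT secretin.

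The female GTPase sums were 1243, 403 and 1006 CPM in WT, 766, 298 and 382 in female WT secretin, 789, 601 and 1646 in female dnTGFB, and 421, 1385 and 959 in female dnTGFB secretin. The Ifit, Oas and Mx sums were 274, 202 and 277 CPM in WT, 241, 87.8 and 100.1 in female WT secretin, 139, 106 and 293 in female dnTGFB, and 207, 312 and 262 in female dnTGFB secretin. Both sums spread widely within female groups. The ratio was 5.66, 5.69 and 5.61 in female dnTGFB, although the heart muscle sum was 52191 and 57265 CPM in libraries 1 and 2 and 438 in library 3, and these were the 3 highest ratios of the series. In female WT it was 4.54, 1.99 and 3.63, in WT secretin 3.17, 3.39 and 3.81 and in dnTGFB secretin 2.03, 4.44 and 3.67. The lowest ratios of the series belonged to the near-identical pair, female WT library 2 and female dnTGFB secretin library 1. No p is given for these sums, since they are scores over chosen genes.

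**Figure D3:**
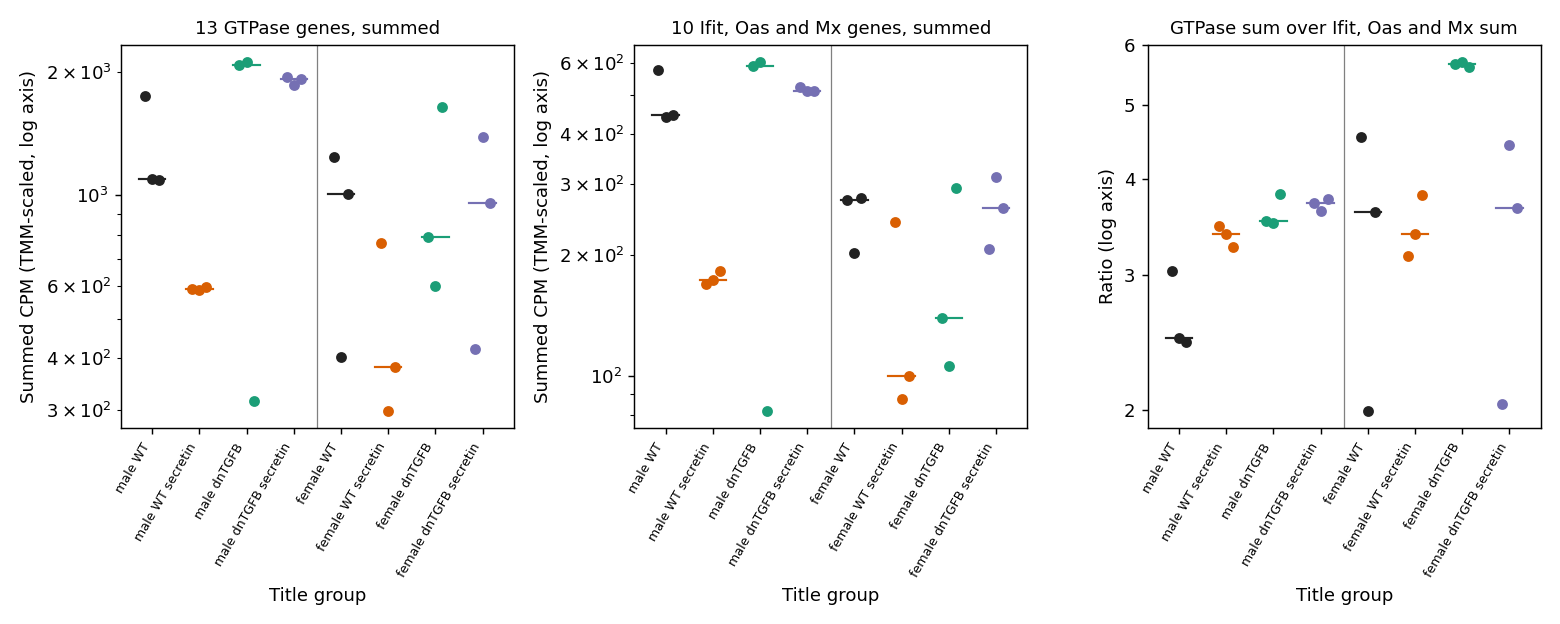
Summed CPM of the 13 GTPase genes (left), of the 10 Ifit, Oas and Mx genes (middle) and the ratio of both sums (right), all on log axes, with points for libraries 1 to 3 and a line at the group median. The ratio lies between 5.61 and 5.69 in the 3 female dnTGFB libraries, above all other libraries, and between 2.45 and 3.04 in male WT.

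The first comparison asked how the untreated model differs from WT. In males none of the 46 members passed edgeR's quasi-likelihood test, Benjamini-Hochberg adjusted over 18777 genes (3 at an unadjusted p under 0.05), where 8.55% of all genes tested were called higher and 8.46% lower. DESeq2 called 1 member, Ido1, higher (13.6% and 12.9% of all genes). The members' median log2 fold change was 0.00 against 0.01 over all genes tested. The largest estimates were those of Ido1 (2.66 ± 0.86, adjusted p = 0.0557) and Mx1 (1.29 ± 0.56, adjusted p = 0.13), each with its SE and, as throughout, edgeR's adjusted p. Gbp2 gave 0.82 ± 0.52, adjusted p = 0.291, and the 6 Gbp genes had estimates of 0.23 to 0.87.

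Male dnTGFB library 3 decided that count. Without it, 21 members were called higher and 4 lower (14.7% and 19.6% of all genes). Without both male WT library 1 and dnTGFB library 3, 29 were higher and 5 lower beside 22.3% and 25.1% of all genes, with a median of 0.54. WT library 1 was left out in part because it was closest to male dnTGFB library 2, so the choice itself favours a difference between the groups. Its Gbp2 stood at 110.2 CPM, against 47.9 and 53.5 in WT libraries 2 and 3. The calls and p-values of this fit are not free of that choice. The small errors of this fit are those of repeat sequencing of 1 pool. On these libraries 12 of 13 GTPases rose, among them all 6 Gbp genes, with Gbp6 at 2.02 ± 0.10, adjusted p = 8.23e-14, Gbp5 at 1.87 ± 0.11, adjusted p = 6.71e-13 and Gbp2 at 1.75 ± 0.07, adjusted p = 5.06e-16 in edgeR's test. Irgm1 was the exception at 0.04 ± 0.05, adjusted p = 0.579. Of the Ifit, Oas and Mx genes 8 of 10 rose, with Mx1 at 2.41 ± 0.25 and Oas3 at 1.61 ± 0.28, whereas Ifit1 rose by 0.47 and Ifit3 gave 0.15 ± 0.08, adjusted p = 0.145 by edgeR. The sensor gene Zbp1, which detects Z-form nucleic acid, rose by 1.91. Ifi35, Irf1, Isg15, Bst2 and Socs1 fell, by 0.22 to 0.47 on the log2 scale.

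Markers of other cells and the mitochondrial share differed between these libraries as well. Male WT libraries 2 and 3 had 9.73% and 9.75% mitochondrially encoded counts and 2345 and 2344 CPM of hepatocyte markers, against 55.1% and 55.0% and 17152 and 16268 CPM in dnTGFB libraries 1 and 2. The neuron markers summed to 89.5 to 108 CPM in male WT, 571 and 546 in dnTGFB libraries 1 and 2 and 3834 in dnTGFB library 3. Some immune lists moved the way the Gbp genes did and others the opposite way. The 6 neutrophil markers, led by S100a9 and S100a8, summed to 176 CPM in male WT library 1 and 291 and 266 in dnTGFB libraries 1 and 2, against 7.18 and 6.71 in WT libraries 2 and 3 and 48.7 to 56.2 in dnTGFB secretin. The 6 markers of natural killer and cytotoxic cells, led by Gzmb and Gzma, summed to 42.6, 64.2 and 67.4 CPM in the first 3 and to 4.32 and 4.67 in WT libraries 2 and 3, and Ifng, which those cells express, stood at 4.06, 0.979 and 1.196 CPM in male WT and 5.90, 5.44 and 0 in male dnTGFB, where the 0 of library 3 allows up to 1.52 CPM. The B cell markers summed to 155, 289.7 and 294 CPM in male WT against 22.4 and 21.1 in dnTGFB libraries 1 and 2, and the Kupffer cell and macrophage markers to 255, 340.2 and 352 against 158 and 149. All 12 neutrophil and natural killer markers were above 0 in male WT and in dnTGFB libraries 1 and 2. The part of all these in the result was not tested, and in bulk RNA fewer cells of a type and less RNA per cell cannot be told apart.

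The second comparison asked what secretin did in WT mice, with the difference in age included. In males 11 of 46 members fell and none rose, where 2.67% of all genes tested were called lower and 3.55% higher, and the median of the members was −0.67 against 0.00 over all genes. Mx2 stood at 92.8, 74.6 and 77.8 CPM in male WT and 7.12, 4.09 and 7.92 in male WT secretin and fell most (−3.71 ± 0.63, adjusted p = 0.00776 by edgeR). The gene annotation lists Mx2 as a polymorphic pseudogene, so its RNA need not encode an intact protein. Ifit1 fell by 3.20 (adjusted p = 0.00761), Isg15 by 2.88 (adjusted p = 0.00805) and Irf1 by 2.44 (adjusted p = 0.0228) on the log2 scale in edgeR's test. Libraries of the groups did not overlap for any of these 4 genes. Socs1, Iigp1, Irgm1, Ifit2, Ifit3, Rsad2, which encodes the antiviral enzyme viperin, and its neighbour Cmpk2 also fell, by 0.79 to 2.39.

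The fall was uneven within classes. Of the GTPases only Iigp1 (−2.11 ± 0.54, adjusted p = 0.0424) and Irgm1 (−1.86 ± 0.42, adjusted p = 0.0251) passed edgeR's test, and no Gbp gene did, with Gbp2 at −0.40 ± 0.52, adjusted p = 0.729, Gbp5 at −1.16 ± 0.62, adjusted p = 0.321 and Tgtp2 at −0.73 ± 0.47, adjusted p = 0.432. Of the Ifit, Oas and Mx genes the 3 Ifit genes and Mx2 fell, while Oasl1 gave −1.70 ± 0.49, adjusted p = 0.0643, Oasl2 −0.38 ± 0.40, adjusted p = 0.656, Oas2 0.72 ± 0.38, adjusted p = 0.311, Oas3 0.95 ± 0.47, adjusted p = 0.286 and Mx1 1.22 ± 0.54, adjusted p = 0.226 by edgeR. None of the 4 sensors and none of the 3 PARP genes was called. Irf7, Stat2 and Usp18 gave −0.66 ± 0.42, adjusted p = 0.415, −0.28 ± 0.36, adjusted p = 0.727 and −0.49 ± 0.32, adjusted p = 0.423 in the same edgeR fit.

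DESeq2 called 13 members lower and none higher (7.61% and 9.0% of all genes). With any 1 library left out, between 0 and 5 members passed edgeR's test, all lower, where 0.565% to 2.1% of all genes were lower. The count was 0 without WT secretin library 2, 2 without WT secretin library 1, 3 without WT library 2, WT library 3 or WT secretin library 3, and 5 without WT library 1. Without the libraries that stood apart, 31 members fell and 4 rose (20.6% and 19.9% of all genes): Irf1 gave −2.50 ± 0.02, adjusted p = 1.1e-27 and Isg15 −2.92 ± 0.06, adjusted p = 1.04e-21, while Mx1, Oas3, Oas2 and Tgtp1 rose by 1.99, 1.55, 1.00 and 0.69. Gbp2 gave 0.08 ± 0.06, adjusted p = 0.342 and Gbp4 −0.07 ± 0.05, adjusted p = 0.253 there by edgeR. Markers of other cells differed between the groups as well. The mitochondrial share was 19.4 to 19.5% in male WT secretin against 9.73% and 9.75% in WT libraries 2 and 3. The 6 B cell markers summed to 155 to 294 CPM in male WT and 93.0 to 103 in WT secretin, hepatocyte markers to 2344 to 10560.4 and 11231 to 11832, and the 5 dendritic cell markers that are no members of the set to 7.67 to 13 and 67.5 to 75.5. Endothelial markers summed to 3590 to 4460 CPM in male WT and 2493 to 2537 in WT secretin. Kupffer cell and macrophage markers went the other way, from 255 to 352 CPM up to 495 to 510. No marker of these lists was at 0 in either group. Neither their part in the result nor that of the Xist reads in male WT secretin was tested.

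In the model itself, secretin went with few differences in these genes. Of 46 members 1 fell, Ido1 (−2.75 ± 0.85, adjusted p = 0.0398 by edgeR), and none rose, where 12.4% of all genes were called lower and 10.1% higher. The median of the members was 0.23 against −0.05 over all genes. Irf1, Isg15, Ifit1 and Irgm1 gave 0.71 ± 0.51, adjusted p = 0.33, 0.34 ± 0.46, adjusted p = 0.622, 0.07 ± 0.50, adjusted p = 0.936 and 0.53 ± 0.41, adjusted p = 0.36 by edgeR. Socs1 had the largest positive estimate, 1.21 ± 0.46, adjusted p = 0.0765. DESeq2 called 2 members higher and 1 lower (14.1% and 18.9% of all genes). Within the untreated group dnTGFB library 3 stood far below the others: there the members summed to 961 CPM against 6012 and 6157 in libraries 1 and 2.

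Without the libraries that stood apart, 20 members fell and 9 rose (23.5% and 23.1% of all genes). The falls were small: Gbp2 gave −0.66 ± 0.06, adjusted p = 2.79e-09, Gbp6 −0.62 ± 0.09, adjusted p = 3.54e-06, Gbp5 −0.36 ± 0.09, adjusted p = 0.00211 and Ifit1 −0.39 ± 0.06, adjusted p = 2.08e-05, and only Ido1 and Mx1 (−1.21 ± 0.21, adjusted p = 4.47e-05) fell by more than 1 on the log2 scale in that edgeR fit. Socs1 rose by 0.77, Bst2 by 0.51, Ifi35 by 0.50 and Irf1 by 0.23. Of the GTPases 9 fell and 2, Igtp and Gbp7, rose. Between dnTGFB libraries 1 and 2 and the dnTGFB secretin libraries the mitochondrial share went from 55.1% and 55.0% to 5.31 to 5.66%. Hepatocyte markers went from 17152 and 16268 to 2684 to 2748 CPM, and cholangiocyte markers from 746 and 749.7 to 4338 to 4463 CPM, and their part in the result was not tested. Scaling by library totals alone, which moved the median of all genes by 0.79, turned the direction, with 39 members higher and 0 lower (35.6% and 4.46% of all genes).

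Under secretin, the model and WT mice differed in many members. In males 13 of 46 were higher in dnTGFB secretin than in WT secretin and none was lower, where 5.75% of all genes were called higher and 7.19% lower, with a median of 0.98 against −0.01 over all genes. Mx2 (76.5 to 77.9 against 4.09 to 7.92 CPM) gave 3.59 ± 0.63, adjusted p = 0.00441, Socs1 3.03 ± 0.49, adjusted p = 0.00276, Ifit1 3.02 ± 0.54, adjusted p = 0.005 and Iigp1 2.51 ± 0.55, adjusted p = 0.0135 by edgeR. Isg15, Irf1, Oasl1, Rsad2, Irgm1, Igtp, Ifit2, Ifit3 and Gbp7 were higher by 1.57 to 2.46. Neither group holds a library that stood apart, and the libraries of each were close: Irf1 ran from 418 to 425 CPM in WT secretin and from 2108 to 2183 in dnTGFB secretin. DESeq2 called 20 members, all higher (11.7% of all genes higher, 13.3% lower). The WT secretin libraries are again those with Xist reads. This comparison shares the WT secretin libraries with the one against untreated WT, so the low values of those libraries enter both.

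All 13 GTPases had positive estimates here, of 0.57 (Tgtp1) to 2.51 (Iigp1), and 4 were called: Iigp1, Irgm1, Igtp and Gbp7. Gbp2 gave 1.01 ± 0.52, adjusted p = 0.237 and Gbp5 1.92 ± 0.63, adjusted p = 0.0701 in edgeR's test. Of the Ifit, Oas and Mx genes 5 were called, whereas Mx1 gave −0.79 ± 0.53, adjusted p = 0.366 and Oas2 0.03 ± 0.37, adjusted p = 0.973. The shared estimate of spread in this fit includes dnTGFB library 3 and WT library 1. With those left out, 40 members were higher and 1, Mx1 (−0.79 ± 0.18, adjusted p = 0.000851), lower, beside 25.1% and 25.7% of all genes, and all 13 GTPases passed. With any 1 library of the pair of groups left out, 4 to 8 members passed (1.94% to 2.17% of all genes were higher), and Ifit1, Mx2, Socs1 and Isg15 were called in each of these edgeR fits, with adjusted p no higher than 0.0497. Cholangiocyte markers summed to 2151 to 2199 CPM in WT secretin and 4338 to 4463 in dnTGFB secretin, hepatocyte markers to 11231 to 11832 and 2684 to 2748 CPM. In the same order the B cell markers summed to 93.0 to 103 and 20.2 to 20.9 CPM, and the T cell markers to 19.8 to 23.4 and 10.3 to 11.7. For the dendritic cell markers that are no members the sums were 67.5 to 75.5 and 8.07 to 8.76 CPM. Neutrophil markers went the other way, from 12.5 to 16.4 up to 48.7 to 56.2 CPM. The mitochondrial share was 19.4 to 19.5% and 5.31 to 5.66%, and the part of all these in the result was not tested.

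**Figure D4:**
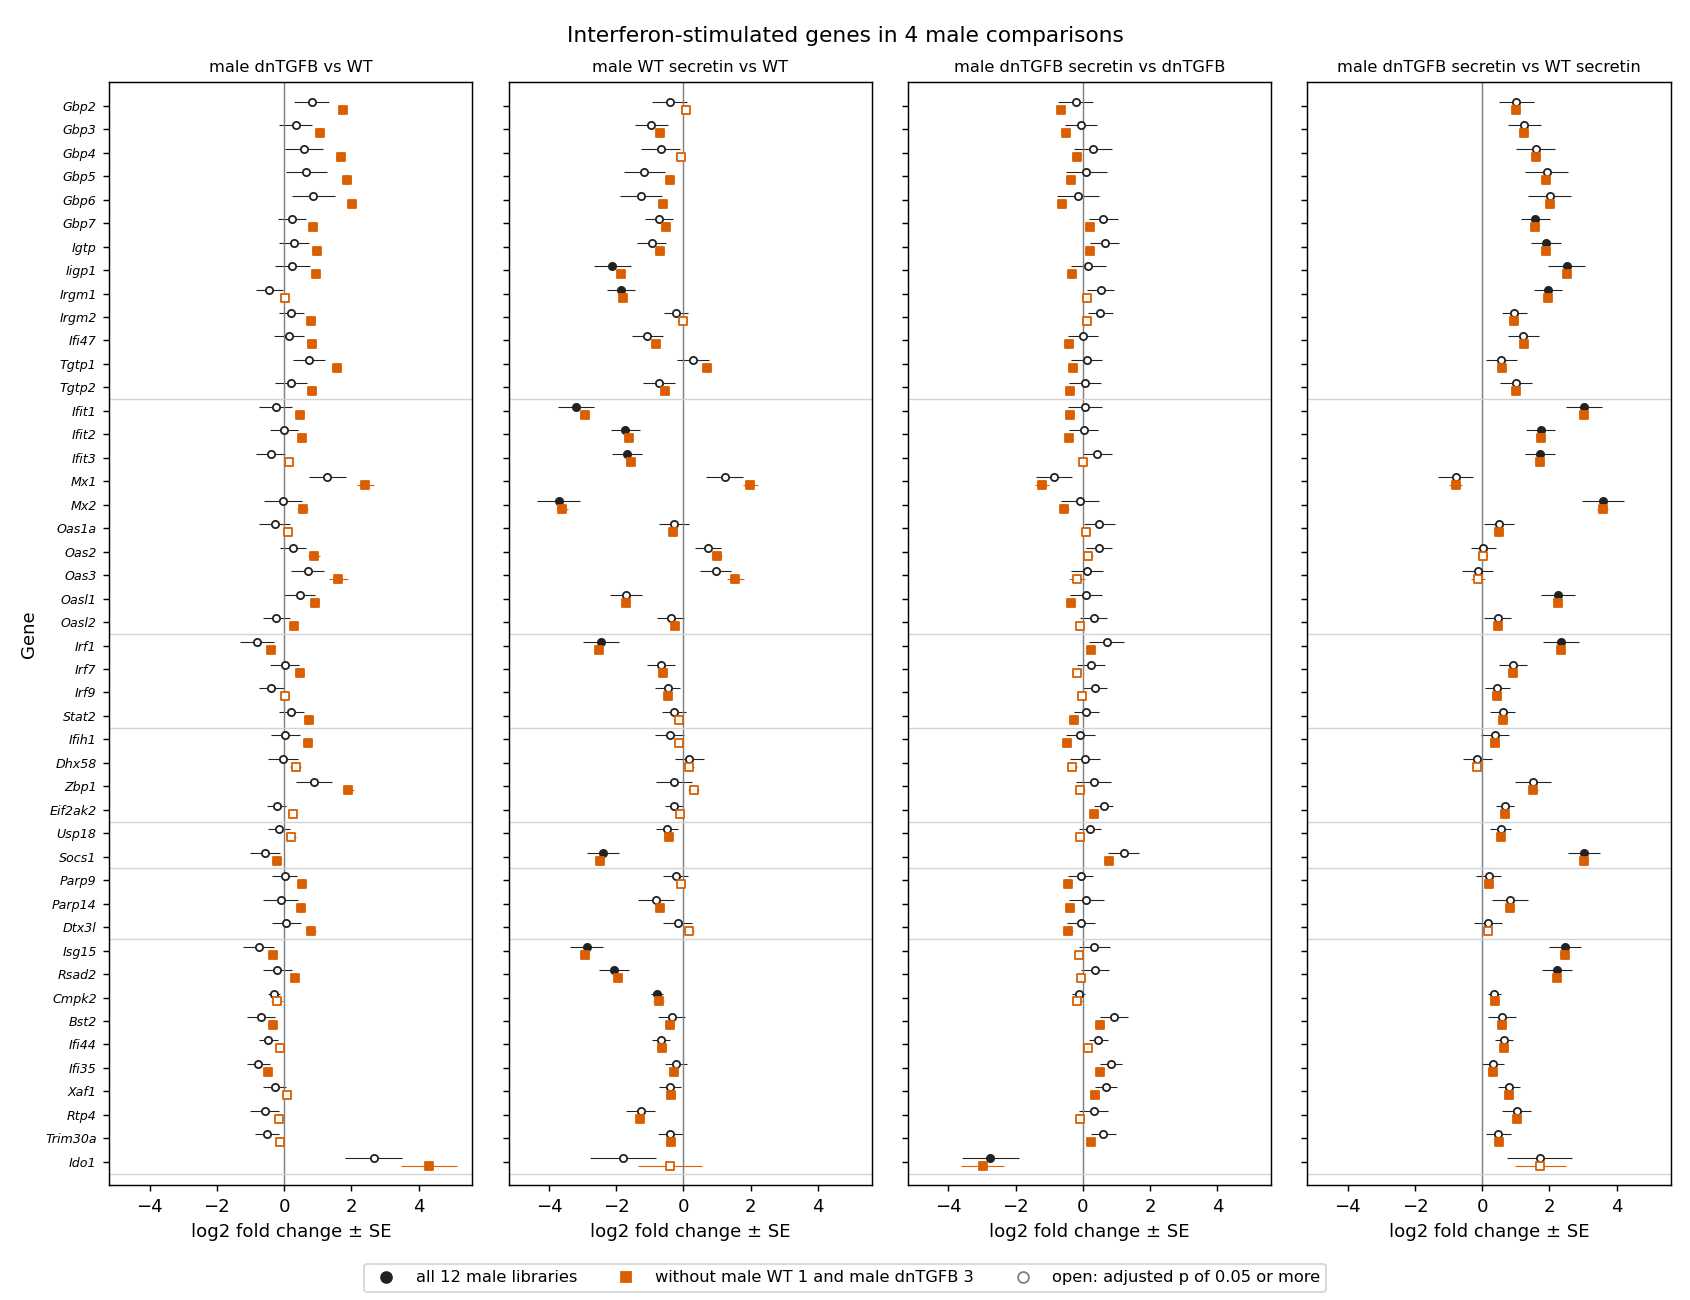
Log2 fold change ± SE of the 46 members in 4 male comparisons, with all 12 libraries (circles) and without male WT library 1 and male dnTGFB library 3 (squares); filled symbols have an adjusted p under 0.05 in edgeR's quasi-likelihood test. Estimates for secretin-treated dnTGFB against secretin-treated WT hardly move, as neither of these groups holds a library that was left out. Those for untreated dnTGFB against WT, whose groups hold these libraries, shift upwards for most members.

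The test of the difference between both secretin effects (the effect in dnTGFB minus that in WT) called 8 members in males, all higher, beside 8.1% of all genes called higher and 7.51% lower. They were Mx2 (3.63 ± 0.83, adjusted p = 0.0175 by edgeR), Socs1, Ifit1, Isg15, Irf1, Rsad2, Irgm1 and Ifit3, the last at 2.11 ± 0.62, adjusted p = 0.042. The median of all members was 0.96 against −0.07 over all genes. No Gbp gene passed, Gbp2 giving 0.19 ± 0.74, adjusted p = 0.876 by edgeR. For these 8 genes the WT effect was negative and called, and the estimate in dnTGFB lay between −0.08 and 1.21 and was not called. The WT effect includes the low values of the WT secretin libraries, those with Xist reads. No age is stated for untreated dnTGFB mice, so age need not cancel in this difference. DESeq2 called 13 members higher and 1 lower (13.5% of all genes higher, 15.2% lower). With 1 library left out, 3 to 26 members passed (3.56% to 20.4% of all genes higher), the most without dnTGFB library 3, and Ifit1, Socs1 and Isg15 were called in each such fit. Without the libraries that stood apart 25 were higher and 8 lower (25.1% and 23.8% of all genes), the lower ones including Mx1 (−3.20 ± 0.31, adjusted p = 8.05e-09), Oas3 and Tgtp1 and, with its sign turned, Gbp2 (−0.74 ± 0.09, adjusted p = 1.64e-07).

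Female libraries of 1 group spread widely, and few differences passed. No member passed edgeR's test in any of the 4 comparisons of pairs of groups, and neither did any other of the 19882 genes tested (0.0% called in either direction). At an unadjusted p under 0.05 there were 1, 8, 0 and 4 members for dnTGFB against WT, WT secretin against WT, dnTGFB secretin against dnTGFB and dnTGFB secretin against WT secretin, and DESeq2 called 0, 2, 0 and 0. The median of the members was −0.29, −0.84, 0.23 and 0.84 in that order, against 0.10, 0.11, −0.02 and −0.02 over all genes. For WT secretin against WT the smallest p by edgeR belonged to Cmpk2, a nucleotide kinase of the mitochondrion (−0.68 ± 0.19, adjusted p = 0.14, libraries at 19.7, 18.4 and 18.1 against 27.7, 28.4 and 30.3 CPM, without overlap), and to Ifit2 (−0.93 ± 0.32, adjusted p = 0.14). DESeq2 called both lower (4.66% of all genes lower, 8.69% higher).

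Irf1 shows the spread: it gave −0.86 ± 0.94, adjusted p = 0.563 for female WT secretin against WT and 1.28 ± 0.95, adjusted p = 0.421 for dnTGFB secretin against WT secretin by edgeR. Isg15 gave −1.13 ± 0.72, adjusted p = 0.321 and 1.47 ± 0.72, adjusted p = 0.248, and Gbp2 0.59 ± 0.68, adjusted p = 0.643 for dnTGFB against WT. Without female WT secretin library 1, which nearly matches a dnTGFB secretin library, 20 members were lower in WT secretin than in WT and 18 were higher in dnTGFB secretin than in WT secretin (8.76% and 7.96% of all genes). The WT secretin group is then made of the 2 libraries with heart muscle sums of 60833 and 64341 CPM, in which all members together summed to 894 and 1068 CPM, against 2834 in library 1. Its bile duct markers summed to 147 and 289.6 CPM there, against 2497 in library 1. Without the 4 libraries rich in heart muscle transcripts, which leaves 1 library in female WT secretin and 1 in female dnTGFB, assumed to vary like the other groups, no member was called in any female comparison.

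The difference between both secretin effects called 1 member in females, Cmpk2 (0.88 ± 0.27, adjusted p = 0.0479 by edgeR), beside 4.03% of all genes called higher and 13.9% lower, and the median of the members was 1.03 against −0.07. The call of Cmpk2 was lost with library totals, without the low-count filter, with the replicate number as a block, without the near-identical pair, without the libraries that stood apart and in 10 of the 12 fits that left out 1 library, in which no member was called. The other 2 of those fits called more members. Without female WT secretin library 1, 22 members were higher and 1 lower, and without female dnTGFB library 3, 15 were higher (15.5% and 10.4% of all genes), the group then left with its 2 libraries rich in heart muscle transcripts.

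Whether an effect differed between the sexes was tested over all 24 libraries. No member passed edgeR's test for the effect of genotype, of secretin in WT or of secretin in dnTGFB, where 4.45%, 0.0% and 2.44% of 20222 genes were higher in males and 2.42%, 0.0% and 5.32% lower. At an unadjusted p under 0.05 there were 0, 4 and 0 members. The male secretin effect in WT minus the female one was −2.33 ± 0.81, adjusted p = 0.114 for Ifit1 and −1.55 ± 1.11, adjusted p = 0.418 for Irf1 by edgeR. Without the libraries that stood apart, Ifit1, Isg15, Ifit3, Ifit2 and Rtp4 were called, each with the more negative effect in males, but female WT secretin is then 1 library, assumed to vary like the other groups and itself nearly identical to a dnTGFB secretin library (1.01% of all genes), Ifit1 at −2.99 ± 0.41, adjusted p = 0.00348. No member was called there for genotype (3.42% of all genes higher in males, 2.6% lower) or for secretin in dnTGFB (2.2% higher, 1.7% lower).

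The other genes of the pathway were taken as a list of 30 ligands, receptors, kinases, factors, sensors and adaptors, of which 29 were found by symbol and 24 had enough reads to test. In males 1 fell in dnTGFB against WT, none was called in WT secretin against WT, 3 rose in dnTGFB secretin against dnTGFB, and 1 was higher and 2 lower in dnTGFB secretin than in WT secretin. Over all genes 8.46%, 10.1%, 5.75% and 7.19% were called in those comparisons and directions, so the counts of the list were near the background. Among ligands, Ifnb1, which encodes interferon beta, stood at 2.59, 1.10 and 1.74 CPM in male WT, 0.735, 0.433 and 0.46 in male WT secretin, 6.98, 2.07 and 1.01 in male dnTGFB, and 5.20, 5.29 and 5.36 in male dnTGFB secretin. It was the ligand called, higher in dnTGFB secretin than in WT secretin (3.25 ± 0.56, adjusted p = 0.00408 by edgeR), as the 13 members were. Ifng was at 2.17, 1.54 and 2.09 CPM in WT secretin and 1.37, 1.63 and 1.05 in dnTGFB secretin and was not called. Ifnl3 and Ifnk had no reads in any library, and Ifna2, Ifna4 and Ifnl2 did not exceed 0.392 CPM.

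Of the receptors, Ifnlr1, which binds type III interferons and is known from epithelia, stood at 6.34, 8.16 and 7.14 CPM in male WT, 8.01, 6.16 and 6.74 in male WT secretin, 2.36, 0.777 and 1.52 in male dnTGFB, and 9.74, 9.44 and 10.4 in male dnTGFB secretin. It was lower in dnTGFB than in WT (−2.17 ± 0.34, adjusted p = 0.00472 by edgeR) and higher in dnTGFB secretin than in dnTGFB (2.59 ± 0.35, adjusted p = 0.00104). Its partner Il10rb rose in the latter comparison by 0.55 and the sensor Tlr3 by 0.83. Ifnlr1 was also the listed gene called in the male difference of secretin effects (2.67 ± 0.45, adjusted p = 0.00485 by edgeR). In males the bile duct markers moved along with Ifnlr1, at 1716 to 2766 CPM in WT, 481 to 749.7 in untreated dnTGFB and 4338 to 4463 in treated dnTGFB, and their part was not tested. They also did so in female WT (Ifnlr1 at 5.56, 1.12 and 4.99 CPM, markers at 2659, 579 and 2721). In female WT secretin they did not (Ifnlr1 at 5.20, 5.56 and 8.27 CPM, markers at 2497, 147 and 289.6). Irf5 and the sensor Tlr9, genes of myeloid and B cells, were lower in dnTGFB secretin than in WT secretin. Ifnar1, Ifnar2, Ifngr1, Jak1 and Tyk2 were called in none of the male comparisons, with Ifngr1 at 59.4, 53.4 and 57.2 CPM in male WT and 78.6, 88.8 and 85.1 in WT secretin.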

How the data were processed

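The authors deposited, for each of 24 libraries, a table of whole-number read counts for 49315 Ensembl mouse genes. Aligner, counter and strand use: not given in the sources used here. Of the gene identifiers 49056 are in GENCODE M21 and 44823 have the same coordinates there, so the build is GRCm38, and symbols come from M21. Groups follow the titles. Counts were tested with edgeR 4.0.16 in R 4.3.3 (TMM scaling, filterByExpr, robust quasi-likelihood F test, Benjamini-Hochberg over all genes tested, calls where adjusted p was below 0.05, whatever the fold), with 1 mean per group over the 12 libraries of a sex, or over all 24 for differences between sexes. SEs were worked back from the F statistic. Levels are CPM from the same package. Alternatives were DESeq2 1.42.0, DESeq2 size factors, library totals, no low-count filter, only the 6 libraries compared, the replicate number as a block, each library left out, and the libraries that stood apart left out; leaving out the near-identical female pair was added after seeing the data. Library likeness was taken after thinning to 1400000 counts, leaving out genes whose summed count was under 10. Total counts of 1429218 to 104003184 set the precision. The fits were tested on simulated counts. Promoter sequences are from RefSeq (GRCm38.p6).

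The members, the gene lists and the markers were chosen with earlier results of these data known. The rule for named genes gave Gbp2, Gbp5, Iigp1, Irgm1, Tgtp2, Ifit1, Oasl2, Mx1, Irf1, Irf7, Stat2, Isg15, Usp18, Socs1 and Ido1 in every library, and per comparison up to 4 called members in each direction with the largest change and at least 10 CPM in the higher group. Other members named were chosen after their values were seen. Some genes of the pathway list are not reported here.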

Additional observations from a re-analysis of the deposited data

Results flagged for a closer look

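The difference between treated and untreated libraries was not the same in dnTGFB and WT males for 8 members by edgeR's test of it. Over all genes 8.1% were called higher and 7.51% lower. The members were Mx2 (3.63 on the log2 scale), Socs1 (3.60), Ifit1 (3.27), Isg15 (3.22), Irf1 (3.15), Rsad2 (2.43), Irgm1 (2.38) and Ifit3 (2.11). All 8 were lower in WT secretin than in WT, so the low values of the WT secretin libraries, those with Xist reads, enter each. Each group is 1 pool. No age is stated for untreated dnTGFB mice, so age need not cancel in this difference. In females the same test picked out 1 member, Cmpk2 (0.88), which stood at 20.2, 19.2 and 27.9 CPM in dnTGFB and 25.9, 24.03 and 25.0 in dnTGFB secretin.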

How the results depend on the processing

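Counts of members called are given for the male comparisons in the order dnTGFB against WT, WT secretin against WT, dnTGFB secretin against dnTGFB, dnTGFB secretin against WT secretin, and the difference of secretin effects, where they were 0, 11, 1, 13 and 8. DESeq2 gave 1, 13, 3, 20 and 14. Library totals gave 15, 10, 39, 21 and 32, DESeq2 size factors 0, 11, 1, 13 and 8, and no low-count filter 0, 7, 1, 12 and 7. For dnTGFB against WT the 15 of library totals were 1 higher and 14 lower, beside 5.38% and 22.4% of all genes. That is the opposite balance to the fit without the libraries that stood apart, and this scaling moved the median of all genes by −0.45. Only the 6 libraries compared gave 0, 29, 1 and 41, where 13.3% of all genes were higher and 15% lower beside the 29, and 29.2% and 30% beside the 41. Without the libraries that stood apart they were 34, 35, 29, 41 and 33, where 19.9% to 25.1% of all genes were called higher and 20.6% to 25.7% lower. Shares of all genes called in 1 direction ranged from 1.12% to 35.6% over library totals and from 7.61% to 18.9% over DESeq2. They ranged from 2.69% to 13% over DESeq2 size factors and from 0.915% to 5.01% with no low-count filter. Leave-one-out gave 0 to 25, 0 to 5, 0 to 14, 4 to 8 and 3 to 26. Beside the 0 to 25, 3.57% to 14.7% of all genes were higher and 2.8% to 19.6% lower. Beside the 0 to 14 these shares were 3.74% to 19% and 1.65% to 18.4%. They were 1.13% to 3.43% and 0.565% to 2.1% beside the 0 to 5. For the 4 to 8 the shares were 1.94% to 2.17% and 2.6% to 3.41%, and for the 3 to 26 they were 3.56% to 20.4% and 2.34% to 17.3%. For secretin in dnTGFB the balance turned to higher with DESeq2 (3), library totals (39) and without dnTGFB library 1 (1).

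Replicate numbers did not pair the libraries: deviations of same-numbered libraries correlated at r of −0.27 to 0.31 in males and −0.93 to 0.94 in females. With the replicate number as a block the male counts were 0, 7, 0, 12 and 7, where 2.27% to 7.63% of all genes were higher and 1.44% to 7.65% lower. With that block no member was called in the female comparisons, where 0.0% of all genes were called, or in the differences between sexes. In females DESeq2 gave 2 for WT secretin against WT and 6 for the difference of secretin effects, DESeq2 size factors 2 for the latter, and library totals, no filter, the replicate block, leaving out the libraries that stood apart and leaving out the near-identical pair 0. Across the female comparisons DESeq2 called 0.543% to 12.2% of all genes higher and 0.694% to 19.4% lower. DESeq2 size factors called 0.0% to 3.83% and 0.0% to 10.6%. Leave-one-out ranged from 0 to 20 for WT secretin against WT, 0 to 18 for dnTGFB secretin against WT secretin and 0 to 23 for the difference of effects. The sex difference of secretin in WT had 5 without the libraries that stood apart.

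Direction turned without the libraries that stood apart for Ifit1 (0.47) and Oasl2 (0.30) in male dnTGFB against WT, for Gbp5 (−0.36), Iigp1 (−0.31), Tgtp2 (−0.38, and −0.37 to 0.39 with 1 library left out), Ifit1 (−0.39) and Stat2 (−0.27) in dnTGFB secretin against dnTGFB, and for Gbp2 (−0.74) in the difference of secretin effects. The log2 ratio of GTPases to Ifit, Oas and Mx genes was higher in male WT secretin than in male WT by 0.35 as a ratio of sums and by 0.12 as a difference of mean log2(CPM + 0.5), and in male dnTGFB secretin than in WT secretin by 0.14 and 0.26. The cause of these shifts was not tested. Ido1 rests on few reads.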

Other observations

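Components of interferon receptors differed in the female libraries rich in heart muscle transcripts. Ifngr2, a chain of the interferon gamma receptor, stood at 54.9, 313 and 211 CPM in female WT secretin and 190.3, 260.2 and 71.4 in female dnTGFB, so the 4 libraries with heart muscle markers were above 39.4 to 61.2 CPM in the female WT and dnTGFB secretin libraries. Il10rb, shared by the receptors for interleukin 10 and type III interferons, stood at 75.7, 197 and 161 and 139.7, 176 and 81.0 CPM, and Mavs, the mitochondrial adaptor of RNA sensing, at 26.3, 93.4 and 65.2 and 65.1, 77.9 and 31.9. The member Bst2 ran the other way, at 326, 57.8 and 76.6 and 91.2, 68.2 and 223 CPM. Ifngr2 (−3.43 ± 0.82, adjusted p = 0.0408) and Il10rb (−1.78 ± 0.49, adjusted p = 0.0417) were the listed pathway genes that passed edgeR's test of the difference of female secretin effects. These were 2 of 24 listed genes tested, beside 13.9% of all genes called lower and 4.03% higher.

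Irf8, a factor of myeloid and lymphoid cells that interferon gamma induces, stood at 247, 197 and 204 CPM in male WT, 96.3, 99.0 and 117 in male WT secretin, 248.8, 272 and 32.9 in male dnTGFB, and 196, 189 and 193 in male dnTGFB secretin, and was not called in any male comparison. Myd88, an adaptor of Toll-like receptors, stood at 104, 111 and 113 CPM in male WT, 56.8, 57.8 and 52.7 in male WT secretin, 105, 125 and 24.8 in male dnTGFB, and 105, 97.1 and 97.9 in male dnTGFB secretin and was not called either. For both, the male WT secretin libraries were below all other male libraries except dnTGFB library 3.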
